A study of Homo sapiens with 6 samples.

Results

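The genes described here are the enzymes and regulators of glutathione and thioredoxin chemistry, together with targets of the transcription factor NRF2, in MDA-MB-468 breast cancer cells. The 45 genes were selected by family and function around GSTP1, which had been seen to switch on in the same comparison. GSTP1 itself was therefore chosen from its measured counts, and its values are given as a description with no test. The other 44 genes were listed for what they encode. Counts were found for 44 of the 45 genes among the 31122 genes of the count table, and GSTT1 was covered by FPKM (a level scaled by transcript length and library size) only.

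MDA-MB-468 is an established triple-negative, basal-like line with many copies of the EGFR gene. Polyadenylated RNA was sequenced from 3 cultures of parental cells, wells of 1 plate, with genotype WT, and from 3 populations with genotype GPR52 KO, made with CRISPR-Cas9 and the guide sgRNA1 against the orphan receptor GPR52, with indels checked by Sanger sequencing per the series' design text. The KO populations carry the titles 11, 12 and OG and are called KO-labelled 1, 2 and 3 below. Whether they are clones or pools, and how they descend from each other, is not given in the sources used here, so the p-values measure only the spread between these cultures, which may be technical within a group. Editing, selection and passage go together with the KO label and cannot be told apart.

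Libraries held between 25637794 and 31692454 counts, and 17420 genes had enough counts for the test. The targeted gene went against its label, with 9, 1 and 0 GPR52 counts in the parental-labelled libraries and 645, 694 and 724 in the KO-labelled ones, so every direction below is that of the libraries labelled KO relative to those labelled parental. Epithelial markers (EPCAM, CDH1, KRT8, KRT18, KRT19) came to a sum of 5139 to 5657 CPM (counts relative to library size, normalised by TMM) in parental-labelled and 4352 to 5083 CPM in KO-labelled libraries, with EPCAM higher (0.46) and CDH1 (-0.42) and KRT18 (-0.46) lower on the log2 scale. Of the leukocyte list, 4 of 5 genes, PTPRC among them, stayed under 1 CPM, and CD14 went from 30.7 ± 5.38 to 3.45 ± 0.888 CPM (SD, n = 3 each). CD68, also under 1 CPM with at most 2 counts in a library, had higher values in FPKM. These were 3.79, 4.52 and 4.08 in parental-labelled and 2.77, 9.25 and 8.49 in KO-labelled libraries, so its low counts do not show its absence. Of the fibroblast list, 3 of the 4 genes counted stayed under 1 CPM, and COL1A1 went from 7.31 ± 0.881 to 25.5 ± 2.12 CPM. The 3 endothelial genes counted summed to between 3.69 and 4.22 CPM in parental-labelled and between 3.18 and 7.28 CPM in KO-labelled libraries. Of these, CDH5 fell by -1.38 (SE 0.26) on the log2 scale, and KDR and VWF were not called. Among markers of the line, ESR1 fell from 9.38 ± 0.728 to 2.79 ± 1.09 CPM. EGFR and ERBB2 were not called, and PGR had no row of counts. The part of these markers in the results below was not tested. KO-labelled 3 stood apart from the other KO-labelled libraries, with correlations of log2 CPM of 0.981 and 0.984 to them against 0.991 between KO-labelled 1 and 2, so results are also given without it where it changes them.

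Glutathione is a small thiol made from glutamate, cysteine and glycine, which transferases attach to reactive compounds and peroxidases use to reduce peroxides. Thioredoxin and the peroxiredoxins form a parallel thiol system that draws its electrons from NADPH. The transcription factor NRF2, encoded by NFE2L2, is held in the cytoplasm and sent for degradation by KEAP1. When released, it pairs with small MAF proteins on antioxidant response elements and raises many of the genes listed here.

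The upstream sequence of GSTP1 is shown because it is the gene that separates the groups most in this family, and because it holds the core letters of an antioxidant response element. The run below is the 250 bases before the RefSeq start of GSTP1, plus strand, chr11:67583562-67583811 in build GRCh38.p14, a later build than the hg19 named by the submitters. Capitals mark the match to TGACNNNGC, which begins 66 bases before the start.

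GSTP1: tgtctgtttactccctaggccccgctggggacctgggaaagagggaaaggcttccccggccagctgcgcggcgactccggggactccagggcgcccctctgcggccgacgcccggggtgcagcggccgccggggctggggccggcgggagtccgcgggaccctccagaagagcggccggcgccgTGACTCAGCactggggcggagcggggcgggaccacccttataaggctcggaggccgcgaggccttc

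This promoter window, with the 50 bases after the start included, holds 36 CG pairs, against a median of 14 over all RefSeq promoter windows of that length, and 12.7% of them hold at least as many. The same core letters, searched on both strands, were found in a promoter window of 10 of the 35 listed genes that the promoter table holds (28.6%) and of 16.1% of all its 27305 genes. A match is a description of letters and no evidence of binding. Windows of 41 bases around the match are shown for GCLM and KEAP1, because the same 9 letters stand before a gene that fell and a gene that rose, and for TXNRD1 and GPX2 as further examples. Capitals mark the match, which in GCLM, KEAP1 and GPX2 is read on the opposite strand. The promoter windows of KEAP1 and TXNRD1 hold further matches that are not shown.

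GCLM: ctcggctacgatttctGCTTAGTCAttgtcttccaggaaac
KEAP1: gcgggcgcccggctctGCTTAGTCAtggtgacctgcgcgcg
TXNRD1: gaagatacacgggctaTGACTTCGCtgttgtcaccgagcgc
GPX2: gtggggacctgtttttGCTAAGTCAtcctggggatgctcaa

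These lie at chr1:93909440-93909480 (minus strand), chr19:10502778-10502818 (minus strand), chr12:104215664-104215704 (plus strand) and chr14:64942843-64942883 (minus strand) of GRCh38.p14, each written in the direction of its gene. GSTP1, GCLM, KEAP1 and TXNRD1 carry the core letters in common and differ in the direction of their change, as the values below show. PGD, GSTA4, GSTO1 and MGST1 also hold these letters and were not called. GSTM1 and GPX2 hold them and had too few counts for the test. The part of these letters in the changes was not tested.

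GSTP1 encodes the pi-class transferase, an abundant conjugating enzyme of many epithelia. Its counts were 14, 1 and 2 in the parental-labelled libraries and 2063, 2336 and 2077 in the KO-labelled ones. In CPM these were 0.462, 0.0397 and 0.0643 against 77.7, 82.6 and 74.2. The gene was thus close to silent in every parental-labelled library and at a like level in all KO-labelled ones, with a mean 414 times higher. Parental-labelled 1 held 14 of the few parental counts on which this ratio rests, and the fitted log2 fold change moved from 8.61 to 10.40 without that library. In FPKM, which can be compared between genes, GSTP1 stood 39th of the 45 listed genes in parental-labelled cells (0.297 ± 0.307) and 11th in KO-labelled cells (113 ± 6.23).

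**Figure D1:**
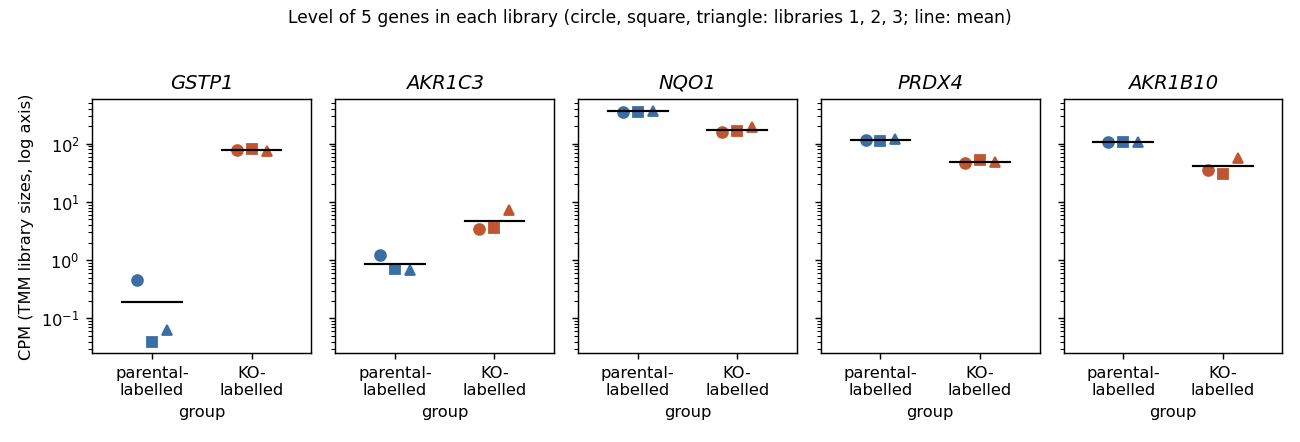
Level in CPM (log axis) of GSTP1 and of the other listed genes that changed by at least 2-fold, in each of 3 parental-labelled (blue) and 3 KO-labelled (orange) libraries; lines are group means. GSTP1 and AKR1C3 lie higher in every KO-labelled library, and NQO1, PRDX4 and AKR1B10 lie lower, with KO-labelled 3 nearest to the parental level for AKR1B10 and NQO1.

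Most of the other listed genes did not rise with GSTP1. Of the 36 that could be tested, 4 rose, 15 fell and 17 were not called (edgeR quasi-likelihood test, Benjamini-Hochberg adjusted p under 0.05). Over all genes tested, 21.0% rose and 19.8% fell, so the share that rose (11.1%) was below and the share that fell (41.7%) above the share of all genes. The median log2 fold change was -0.22, against 0.01 over all genes, and 26 of the 36 had a negative value. The groups did not overlap for 23 of the 36 genes (63.9%, against 54.4% of all genes), with KO-labelled libraries below in 19 and above in 4. The rises were KEAP1, GSS, GPX8 and AKR1C3, and without any one of the parental-labelled libraries GSS and GPX8 lost their call, which left 2 rises. The falls were GSTK1, MGST3, GCLC, GCLM, GSR, TXN2, TXNRD1, PRDX1, PRDX3, PRDX4, PRDX6, NQO1, AKR1B10, CAT and SOD1, from -0.20 (PRDX3) to -1.39 (AKR1B10). Libraries are bulk cultures, so less RNA per cell and fewer cells with the transcript cannot be told apart.

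**Figure D2:**
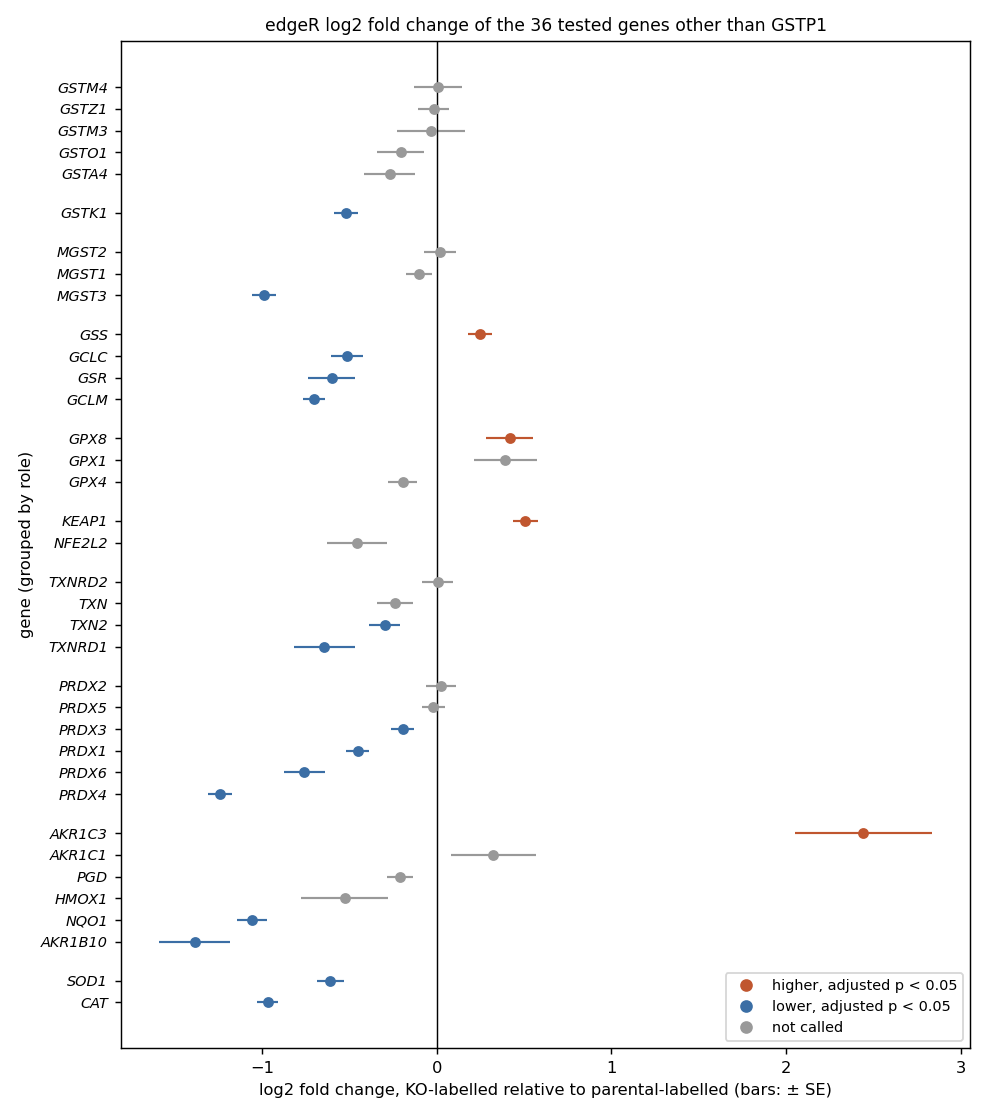
Log2 fold change (x axis, bars ± SE) of the 36 tested genes other than GSTP1, grouped by role; orange marks the 4 that rose, blue the 15 that fell and grey the 17 not called. Most points lie left of 0, and AKR1C3 at 2.44 lies farthest to the right.

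Among the cytosolic transferases in the list of 45, none of the 5 tested other than GSTP1 was called. Over all genes, 21.0% rose and 19.8% fell. GSTA2 and GSTT2, from a further list given below, fell in counts, though the GSTT2 groups overlapped in FPKM. Of the mu class, GSTM3 was at -0.03 (SE 0.19) and GSTM4 at 0.01 (SE 0.14) on the log2 fold change scale. GSTZ1, which isomerises maleylacetoacetate in tyrosine breakdown, was at -0.02 (SE 0.09), the omega-class GSTO1 at -0.21 (SE 0.13) and GSTA4, which conjugates lipid aldehydes, at -0.27 (SE 0.14). Their adjusted p-values in edgeR ran from 0.171 to 0.968. Without KO-labelled 3, GSTM3 and GSTO1 were called lower, at -0.33 and -0.32 with edgeR adjusted p of 0.00558 and 0.0378, and GSTA4 was called lower, at -0.41 with edgeR adjusted p of 0.0372, without KO-labelled 1. GSTM1, GSTM2 and GSTO2 had too few counts for the test, with at most 2, 9 and 17 counts in any library. GSTT1 was listed at between 0 and 0.00624 FPKM. Reads can be split or lost between the near-identical GSTM genes, so their values are uncertain.

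Summed over the 10 cytosolic transferases listed, the authors' FPKM came to 76.1, 71.4 and 80.8 in parental-labelled 1 to 3 and to 179, 187 and 188 in KO-labelled 1 to 3. Without GSTP1 the sums were 75.5, 71.3 and 80.7 against 65.6, 68.5 and 81.6, with overlapping groups. GSTP1 alone made up 0.392% ± 0.403 of the sum in parental-labelled and 61.1% ± 3.94 in KO-labelled libraries (SD, n = 3 each). Among these 10 genes, GSTP1 alone accounted for the larger KO-labelled sum.

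Transferases outside the cytosol were level or lower. MGST3, a membrane-bound transferase of the MAPEG family, fell from 82.9 ± 3.24 to 41.7 ± 1.61 CPM, by -0.99 (SE 0.07, edgeR adjusted p = 4.2e-05). GSTK1, the mitochondrial and peroxisomal kappa-class enzyme, fell from 153 ± 5.89 to 107 ± 5.81 CPM, by -0.52 (SE 0.07). MGST1, the most abundant listed transferase in FPKM in both groups (295 ± 3.89 and 286 ± 21.9), was at -0.10 (SE 0.08), and MGST2 at 0.02 (SE 0.09), and neither was called. MGST1 was called lower without KO-labelled 3 (-0.17, edgeR adjusted p = 0.0338). Over all 14 listed transferases the summed FPKM was 656 ± 13.2 in parental-labelled and 662 ± 22.9 in KO-labelled libraries.

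Glutathione synthesis and reduction moved in both directions. Glutamate-cysteine ligase, which sets the pace of synthesis, fell in both of its subunits. Its catalytic subunit GCLC stood at 125, 130 and 122 CPM against 88.2, 77.8 and 97.9 CPM, a log2 fold change of -0.51 (SE 0.09, edgeR adjusted p = 0.00302). Its modifier subunit GCLM stood at 121, 126 and 120 CPM against 76.0, 76.5 and 72.7 CPM, a log2 fold change of -0.70 (SE 0.06, edgeR adjusted p = 1.1e-04). The groups did not overlap for either subunit, which also held for 54.4% of all genes tested. The fall of GCLC was short of the threshold in the limma test on FPKM (adjusted p = 0.0526 and 0.0545 with pseudocounts of 1 and 0.1). GSR, which regenerates reduced glutathione, fell from 171 ± 3.78 to 113 ± 22.6 CPM and was lowest in KO-labelled 3 (132, 118 and 88.0 CPM). GSS, which adds glycine in the last step of synthesis, rose from 94.1 ± 0.663 to 112 ± 6.34 CPM, by 0.25 (SE 0.07, edgeR adjusted p = 0.0203). That call was lost without any one of the parental-labelled libraries and without KO-labelled 2 (edgeR adjusted p from 0.0539 to 0.0968).

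Of the glutathione peroxidases, 3 could be tested and 1 was called, higher (33.3%, beside 21.0% of all genes). GPX8, a membrane protein of the endoplasmic reticulum, rose from 24.3 ± 1.12 to 32.4 ± 6.15 CPM, by 0.42 (SE 0.13, edgeR adjusted p = 0.0382), a call lost without any one of the parental-labelled libraries. GPX1, the main cytosolic enzyme, stood at 55.5, 57.1 and 72.5 CPM against 64.6, 74.3 and 104 CPM, and GPX4, which reduces lipid peroxides in membranes, at 116 ± 9.81 against 102 ± 5.37 CPM. Neither was called, with edgeR adjusted p of 0.119 and 0.0946. GPX2, a selenoenzyme of epithelia, had 4 to 8 counts in parental-labelled and 9 to 28 in KO-labelled libraries. GPX7 had 0 counts in each parental-labelled library and 3, 3 and 2 in the KO-labelled ones, and GPX3 had 1 count in all.

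The regulators moved apart, and only KEAP1 was called. KEAP1 stood at 141, 137 and 151 CPM in parental-labelled and 193, 203 and 215 CPM in KO-labelled libraries. It was higher in every KO-labelled library, with a log2 fold change of 0.51 (SE 0.07, edgeR adjusted p = 9.6e-04). NFE2L2, which encodes NRF2, stood at 228, 231 and 224 CPM against 137, 141 and 220 CPM. KO-labelled 1 and 2 were well below the parental range, whereas KO-labelled 3 was just under it, and the log2 fold change of -0.46 (SE 0.17) did not pass the edgeR test (adjusted p = 0.0642). Without KO-labelled 3 it was called lower, at -0.72 (edgeR adjusted p = 5.0e-06), and with all 6 libraries DESeq2 and limma voom called it lower (adjusted p = 0.0323 and 0.0453). These are transcript levels, and NRF2 is controlled largely as a protein.

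Of the 6 genes listed as NRF2 targets, 2 fell (33.3%), 1 rose (16.7%) and 3 were not called. Over all genes, 19.8% fell and 21.0% rose. AKR1B10 had the largest fall of the listed genes tested. NQO1, a quinone reductase often read as a gauge of NRF2 activity, stood at 352, 357 and 364 CPM against 156, 166 and 193 CPM. The groups were far apart, with a log2 fold change of -1.06 (SE 0.09, edgeR adjusted p = 7.4e-05), and its rank in FPKM among the 45 genes went from 3rd to 7th. AKR1B10, an aldo-keto reductase that acts on retinal and reactive aldehydes, stood at 107, 105 and 108 CPM against 35.5, 30.4 and 56.5 CPM. It fell by -1.39 (SE 0.20, edgeR adjusted p = 0.00117), and KO-labelled 3 lay nearest to the parental level. HMOX1, the inducible heme oxygenase, stood at 29.5, 31.9 and 32.8 CPM against 14.9, 18.2 and 32.2 CPM. Here KO-labelled 3 lay inside the parental range, and the gene was not called (-0.53, SE 0.25, edgeR adjusted p = 0.127), but was called lower without that library (-0.92, edgeR adjusted p = 5.3e-05). PGD, an NADPH-forming enzyme of the pentose phosphate pathway, was just short of the threshold at -0.21 (SE 0.07, edgeR adjusted p = 0.0504), and was called lower in 6 of 17 alternative analyses, DESeq2 among them (adjusted p = 0.0390).

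The AKR1C genes, neighbouring reductases of steroids and carbonyls that were also listed as NRF2 targets, went the other way or were not called. AKR1C3, also a prostaglandin F synthase, stood at 1.22, 0.715 and 0.675 CPM against 3.47, 3.61 and 7.25 CPM. It was higher in every KO-labelled library at a low level, with a log2 fold change of 2.44 (SE 0.39, edgeR adjusted p = 0.00187). On the authors' FPKM the rise was smaller, from 4.22 ± 0.301 to 7.36 ± 2.43, a difference of 0.64 on the log2(FPKM + 1) scale (limma adjusted p = 0.0328). AKR1C1 stood at 32, 31.5 and 36.5 CPM against 30.6, 33.2 and 61.4 CPM, so that KO-labelled 3 alone was well above the parental range, and it was not called (0.33, SE 0.25, edgeR adjusted p = 0.324). These genes are nearly identical in sequence, and how reads shared between them were counted is not given in the sources used here, so the size of the AKR1C3 change is uncertain.

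The thioredoxin system was level or lower. TXNRD1, the cytosolic selenoenzyme that recharges thioredoxin with NADPH, stood at 280, 278 and 254 CPM against 147, 142 and 231 CPM. KO-labelled 3 was close to the lowest parental-labelled library, and the log2 fold change was -0.64 (SE 0.17, edgeR adjusted p = 0.0198). The call was lost on leaving out any 1 library other than KO-labelled 3 (edgeR adjusted p from 0.0501 to 0.0649), and without KO-labelled 3 the value was -0.91 (edgeR adjusted p = 3.1e-06). TXN, cytosolic thioredoxin, was at -0.24 (SE 0.10) and not called (edgeR adjusted p = 0.0954), and was called lower, at -0.35 (edgeR adjusted p = 0.00241), without KO-labelled 3. Mitochondrial thioredoxin, TXN2, fell by -0.30 (SE 0.09, edgeR adjusted p = 0.0307), a call lost in 8 of 17 alternative analyses. Among these were the fits without any 1 library but KO-labelled 3 (edgeR adjusted p from 0.0651 to 0.104). The reductase of TXN2, TXNRD2, was at 0.01 (SE 0.09). SRXN1, which repairs overoxidised peroxiredoxins, had 1 to 3 counts in every library of the count table, yet 32.1, 32.8 and 34.2 FPKM against 23.5, 24.8 and 24.8 FPKM in the authors' other table. On FPKM it was lower in every KO-labelled library, with a difference of -0.42 (SE 0.07) on the log2(FPKM + 1) scale (limma adjusted p = 0.00327), and the cause of the gap between the tables was not tested.

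Peroxiredoxins, the most abundant peroxidases listed here, fell in 4 of 6 genes (66.7%, beside 19.8% of all genes). PRDX4, the secreted and endoplasmic reticulum member, stood at 116, 113 and 120 CPM against 46.8, 51.9 and 48.8 CPM. All KO-labelled libraries lay together and well below the lowest parental value, with a log2 fold change of -1.24 (SE 0.07, edgeR adjusted p = 1.3e-05). PRDX6, which uses glutathione rather than thioredoxin, fell from 310 ± 7.39 to 183 ± 33.6 CPM, by -0.76 (SE 0.12). PRDX1, the most abundant of all 45 genes in FPKM in both groups, fell from 526 ± 6.97 to 384 ± 21.7 CPM, by -0.45 (SE 0.06). The mitochondrial PRDX3 fell by -0.20 (SE 0.06, edgeR adjusted p = 0.0426), a call lost in 10 of 17 alternative analyses. Among these were the fits without any 1 of parental-labelled 1, 2 or 3 or KO-labelled 1 (edgeR adjusted p from 0.0727 to 0.163). The upper quartile and library total scalings were others (edgeR adjusted p = 0.0902 and 0.0960). PRDX2 and PRDX5 were at 0.03 (SE 0.08) and -0.02 (SE 0.07) and not called. The summed FPKM of the 6 genes was 1377, 1317 and 1413 in parental-labelled and 1100, 1154 and 1082 in KO-labelled libraries. These sums did not overlap, and neither did the CPM of 54.4% of all single genes tested.

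The listed enzymes that act on superoxide and hydrogen peroxide without thiols both fell, where 19.8% of all genes did. Catalase (CAT), the peroxisomal enzyme, stood at 302, 312 and 302 CPM against 154, 152 and 162 CPM, a log2 fold change of -0.97 (SE 0.06, edgeR adjusted p = 2.3e-05). Its libraries were tight within each group and far apart between groups. SOD1, the cytosolic copper-zinc superoxide dismutase, fell from 238 ± 10 to 156 ± 12.5 CPM, by -0.61 (SE 0.08, edgeR adjusted p = 5.8e-04). Summed over the 44 listed genes other than GSTP1, the FPKM were 3926, 3784 and 4015 in parental-labelled and 2996, 3082 and 3255 in KO-labelled libraries, a ratio of 0.796 between the means.

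KO-labelled 1 and 2 lay close together, whereas KO-labelled 3 was higher than their mean in 25 of the 36 tested genes (69.4%, against 48.4% of all genes tested), with a median difference of 0.14 on the log2(CPM + 0.5) scale. The gap was widest for HMOX1 (0.95), AKR1C1 and AKR1C3 (0.94 each), AKR1B10 (0.77), GSTM3 (0.73), NFE2L2 (0.67) and TXNRD1 (0.67), and ran the other way for GSR (-0.51). GCLM, PRDX1, PRDX4, MGST3 and CAT differed by at most 0.09 between KO-labelled 3 and the mean of the others. With 1 library of each population these differences have no test. Without KO-labelled 3, 4 of 37 tested genes rose and 22 fell, against 26.6% and 26.0% of all genes tested, and the 15 falls seen with all libraries were all among the 22. The further 7 were NFE2L2, HMOX1, TXN, GSTM3, GSTO1, MGST1 and PGD. This comparison among the KO-labelled libraries was chosen after the values were seen.

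**Figure D3:**
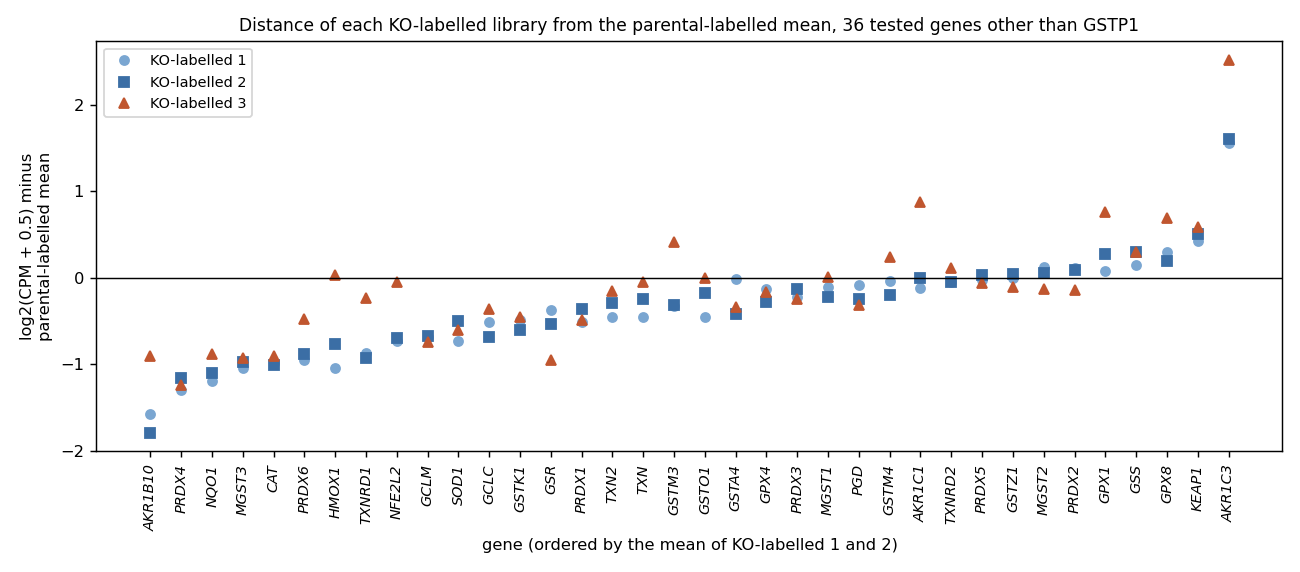
Difference of each KO-labelled library from the parental-labelled mean on the log2(CPM + 0.5) scale (y axis) for the 36 tested genes other than GSTP1, ordered by the mean of KO-labelled 1 and 2. KO-labelled 3 (orange triangles) lies near 0 for NFE2L2 and HMOX1 where the others lie between -0.69 and -1.05, and lies with them for GCLM, MGST3, CAT and PRDX4.

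Other genes of the pathway were taken from 6 lists of 99 genes in all, of which 85 could be tested, with 17 higher, 25 lower and 43 not called. These are 20% and 29.4%, beside the 21.0% and 19.8% of all genes, and the median log2 fold change was -0.17. Without KO-labelled 3 there were 20 rises and 39 falls, beside 26.6% and 26.0% of all genes in that comparison. Among 24 tested further NRF2 targets, 4 rose (16.7%) and 9 fell (37.5%; 16 genes without KO-labelled 3). The NADP-dependent malic enzyme ME1 fell from 73.7 ± 1.33 to 24.2 ± 1.79 CPM, by -1.61 (SE 0.08), the iron-binding protein PIR by -1.18 (SE 0.10) and the epoxide hydrolase EPHX1 by -0.81 (SE 0.07). The rises were led by the efflux pump ABCC4, from 6.99 ± 0.607 to 30.0 ± 1.90 CPM (2.10, SE 0.11), the cystine transporter SLC7A11 (1.59, SE 0.10) and ABCC1 (0.69, SE 0.10), which exports glutathione conjugates. The related exporter ABCC2 fell, by -1.63 (SE 0.18), and ABCC3 was not called (-0.31, SE 0.22).

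Of the 14 NRF2 regulators and partners, 4 rose (28.6%) and 2 fell (14.3%; 5 genes without KO-labelled 3), near the 21.0% and 19.8% of all genes. The rises came to 5 with upper quartile or library total scaling, DESeq2 or limma voom. They came to 2 in the test against a 1.5-fold change. MAFG, a small MAF partner of NRF2, rose from 25.8 ± 0.719 to 44.1 ± 0.217 CPM, the coactivator CREBBP by 0.62 (SE 0.06) and the related factor NFE2L3 by 0.75 (SE 0.09). DPP3, which can bind KEAP1, fell by -0.43 (SE 0.07) and NFE2L1, a relative of NRF2 that controls proteasome genes, by -0.30 (SE 0.06). BACH1, which represses HMOX1, was at 0.26 (SE 0.09) and just short of the edgeR threshold (adjusted p = 0.0513).

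Supply and breakdown of glutathione was the 1 list with more rises than falls beside that of the regulators, at 6 against 3 of 16 tested genes. These are 37.5% and 18.8%, beside 21.0% and 19.8% of all genes, so the share that fell was near that of all genes. The transsulfuration enzyme CBS rose from 53.4 ± 4.41 to 159.7 ± 6.16 CPM, by 1.58 (SE 0.08). SLC3A2, the partner chain of the cystine transporter, rose from 145 ± 6.56 to 276 ± 29.7 CPM, and the gamma-glutamyltransferase relative GGT7 by 1.15 (SE 0.14). Glyoxalase 1 (GLO1), which clears methylglyoxal with glutathione, fell from 211 ± 1.97 to 142 ± 11.9 CPM, the gamma-glutamyltransferase GGT5 by -1.85 (SE 0.27) and the second glyoxalase HAGH by -0.38 (SE 0.10). CTH, which releases cysteine after the CBS step, stood at 8.70 ± 0.765 against 6.42 ± 1.32 CPM and was not called (-0.44, SE 0.16, edgeR adjusted p = 0.0635).

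Of 18 tested glutaredoxins and thioredoxin partners, 2 rose (11.1%) and 5 fell (27.8%), beside 21.0% and 19.8% of all genes. The falls were 2 or 3 without any one of the parental-labelled libraries or KO-labelled 1. The methionine sulfoxide reductase MSRA had 2 counts over the parental-labelled libraries against 372 over those labelled KO, and the ratio scaled to library size was 194 (exact 95% counting interval 53.4 to 1611), and NXN rose by 0.83 (SE 0.09). The mitochondrial glutaredoxin GLRX2 fell from 28.1 ± 0.925 to 13.1 ± 0.220 CPM, the stress protein SESN1 by -0.54 (SE 0.11) and TXNDC9 by -0.58 (SE 0.14). MSRA was thus near 0 in parental-labelled cells and present in KO-labelled ones, as GSTP1 and the targeted gene GPR52 were. How many genes outside the pathway did the same was not counted.

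Among further glutathione transferases and MAPEG genes 3 of 6 tested fell (50%, beside 19.8% of all genes) and none rose, with 1 fall left without parental-labelled 3. GSTA2, an alpha-class transferase, had 96 counts in the parental-labelled group and 0 in every KO-labelled library, at least 30.6-fold lower with 3 counts over the group as the floor. The prostaglandin synthase PTGES fell from 14.5 ± 1.59 to 7.63 ± 2.82 CPM. GSTT2 fell by -1.17 (SE 0.33) in counts, at under 1 CPM. In FPKM its groups overlapped, at 1.55, 1.19 and 1.67 in parental-labelled against 0.898, 0.809 and 1.88 in KO-labelled libraries. Reads may be shared between GSTA2 or GSTT2 and their near copies. Of 7 further antioxidant enzymes 3 fell (42.9%) and 1 rose (14.3%), beside 19.8% and 21.0% of all genes. The mitochondrial superoxide dismutase SOD2 fell from 143 ± 4.83 to 81.4 ± 9.68 CPM, the peroxiredoxin-like FAM213A by -0.67 (SE 0.07) and the aldehyde reductase AKR1A1 by -0.38 (SE 0.08). CCS, which loads copper into SOD1, rose by 0.33 (SE 0.08), a call lost without parental-labelled 1 or 2. In edgeR, the changed genes named from the 6 lists had adjusted p-values between 2.8e-06 and 0.0233.

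Of the 5 tested genes on each side of GSTP1 on chromosome 11, in the RefSeq order of GRCh38.p14, 1 rose and 4 fell, beside 21.0% and 19.8% of all genes, a number too small to set the neighbours apart. The nearest, CDK2AP2 and the complex I subunit NDUFV1, were at -0.14 (SE 0.11) and 0.04 (SE 0.10) and not called. PITPNM1 and TMEM134 were not called either. The falls were ACY3 (-2.00), CABP4 (-1.89), ALDH3B2 (-0.87) and NUDT8 (-0.73), and the pseudogene DOC2GP rose by 1.59, with edgeR adjusted p-values between 6.2e-04 and 0.0196. CABP4 and DOC2GP rested on few counts. CABP4 had 11, 11 and 14 in parental-labelled against 3, 5 and 1 in KO-labelled libraries, and DOC2GP had 6, 8 and 7 against 30, 14 and 17.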

How the data were processed

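Raw counts per gene symbol and FPKM values were deposited by the authors, 1 column per library. Per the submitters' processing notes, hg19 and the tools Cufflinks 2.0.2, SAMtools 0.1.19 and STAR 2.4.0f1 were used, in roles they do not state. How reads were counted, on which strand and when shared between genes, was not given in the sources used here, so overlapping genes and near copies are uncertain. Per the labels' protocols, the libraries were directional and poly(A) selected.

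All 6 libraries were fitted with edgeR 4.0.16 in R 4.3.3 (filterByExpr with a minimum count of 10 and total of 15, TMM, quasi-likelihood F test, no covariate), with Benjamini-Hochberg adjustment over 17420 genes and a threshold of 0.05. The SE is the size of the log2 fold change divided by the square root of F. 1 count was worth 0.0321 to 0.0397 CPM, and the floor and the interval given take in only the error of counting. Alternatives used DESeq2 1.42.0 and limma 3.58.1, with FPKM tested as log2(FPKM + 1) or log2(FPKM + 0.1) for genes at 1 FPKM or more in 3 libraries. The edgeR steps were tested on simulated data.

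Genes and lists were chosen with earlier results of these data known. Named were all 45 genes, in each of the 6 lists up to 3 changed genes per direction with the smallest p, and 5 neighbours on each side of GSTP1, of which 1 is not reported here. ABCC2, ABCC3, BACH1 and CTH were named after their values were seen. Promoter sequences are from RefSeq (GRCh38.p14). Of the tested genes, 84.8% matched the RefSeq table used for gene order.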

Additional observations from a re-analysis of the deposited data

How the results depend on the processing

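No called gene among the 36 changed sign in any of 17 alternatives (other normalisations, filters, tests and units, and leaving out each library). Of the 19 called genes, 13 kept their call in every alternative that tested them other than the test against a 1.5-fold change, and 6 kept it there too. AKR1C3, counted in both, was not tested under the filter at 10 CPM. That stricter test (glmTreat) called 1 rise and 5 falls among the 36 listed genes tested, and 9 rises and 10 falls among 85 in the 6 other lists. Of all genes, it called 5.85% higher and 5.19% lower. Leaving out 1 library gave 2 to 4 rises and 12 to 22 falls among the listed genes, and 14 to 20 rises and 18 to 39 falls in the other lists, the highest falls being those without KO-labelled 3. Among all genes tested in those fits, 13.9% to 26.6% rose and 13.4% to 26.0% fell, also with the highest shares without KO-labelled 3. Of the 17 genes not called, 8 were called in at least 1 alternative, and 8 changed sign in one, never past the threshold. With 10 CPM required in 3 libraries, 23.8% of all genes rose and 23.8% fell, beside 3 rises and 15 falls of 34 listed genes. With 10 neighbours on each side of GSTP1, 2 rose and 5 fell. A motif 1 base longer was found in 7 of 35 genes (20%), against 3.94% of all. FPKM and CPM means had the same direction for 34 of 36 genes, and 12 of the 15 falls kept their call in each limma test on FPKM. No paired analysis was possible because the KO populations' labels share no replicate numbers with the parental wells.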
